A study of Rattus norvegicus with 9 samples.

Results

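The measurements concern 10 of the 32043 genes in an expression table of rat cartilage. They encode the AP-1 proteins Fos, Fosb, Fosl2, Jun, Junb, Jund and Atf3, the zinc-finger factor Egr1, and its corepressors Nab1 and Nab2. Most were found by gene name in the table, and Atf3 and Nab1 by gene identifier. The entry ENSRNOG00000003745 is named Atf6 in the table and described there as activating transcription factor 3. The entry ENSRNOG00000012959 is named piezo1 and described as Ngfi-A binding protein 1. These 2 genes are called Atf3 and Nab1 here, after their descriptions. The set was chosen by FPKM values of these same 9 libraries, with the differences between the groups in view, so the comparisons of the 10 genes are given as a description, with no test.

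The tissue was knee cartilage of male Sprague–Dawley rats, bought at 8 weeks of age, in 3 groups of 3 libraries. Control rats had the joint capsule of the left knee opened and sutured. Model rats had 2 ligaments and the medial meniscus of that knee taken out by the modified Hulth method, followed by daily forced activity for 4 weeks, which gives knee osteoarthritis (KOA) through an unstable joint. SYD-H rats had the same operation and then SYD, a herbal extract, by gavage for 4 weeks, and tissue was taken 8 weeks from the operation. The treated libraries are labelled only as SYD, and the high dose follows the study's results section, since its methods list sequencing for control and model tissue alone. The library names of this group begin with CXTB, which the sources used here do not explain. Whether control and model rats were gavaged with vehicle, and whether each library came from a single animal, is not stated in the sources used here. A spread between libraries may therefore be partly technical. The labels give cartilage as the tissue, while their extraction text speaks of retinas.

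Expression was given as FPKM, fragments scaled by gene length and by a library size set by the authors. Whole reads could be recovered from these values, 14914121 to 19510537 per library. The authors' library size was 0.193 to 2.18 times the recovered reads. It was lowest in model library 1, where mitochondrial genes held 90.7% of the reads. The libraries differed in how many of the recovered reads fell outside the 37 mitochondrial genes. Control libraries held 14306782 to 17373645 such reads, model libraries 1, 2 and 3 held 1744769, 11106680 and 3611325, and SYD-H libraries 12322343, 12745818 and 5153851. Values from model libraries 1 and 3 thus rest on the fewest reads. Cartilage markers were present but uneven. Col2a1, the main collagen of cartilage, stood at 348 to 8323 FPKM in control, 39.0 to 606 in model and 42.4 to 609 in SYD-H libraries. Of 10 chondrocyte markers, Matn3 was at 0 in 3 libraries and Cnmd in 1, all from operated rats.

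AP-1 is a dimer of a FOS and a JUN protein, or of either with an ATF protein, that binds DNA through a basic leucine zipper. Its genes, like Egr1, are immediate-early genes: a signal such as a growth factor, a cytokine or a mechanical load switches them on within minutes, through factors that are already in the cell, and their RNAs are short-lived. Egr1 binds GC-rich sites and activates the gene of Nab2, among others, and the proteins Nab1 and Nab2 bind Egr1 in turn and hold its activity down. In joint tissue, AP-1 is known for its sites in the promoters of matrix metalloproteinases.

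Promoter sequence was at hand for 7 of the 10 genes, from RefSeq on the rat build GRCr8, as windows of 300 bases that reach from 250 bases before the start of the gene to 50 after it. No window was given for Fos, Jun and Atf3. The stretches printed here hold sites of the factors just described, or the site through which serum response factor acts. Capitals mark the motif, and positions count from the start of the gene, negative before it. The Egr1 stretch, chr18:26736958-26737019 on the plus strand, has a CArG box, the serum response factor site, at -105 to -96 and another at -83 to -74.
Egr1: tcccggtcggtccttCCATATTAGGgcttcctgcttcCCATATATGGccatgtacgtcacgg
The Nab1 stretch, chr9:56545425-56545566 on the plus strand, has the Egr1 motif GCGNGGGCG at -202 to -194 on the opposite strand, and at -170 to -162 and -99 to -91 on the gene's strand.
Nab1: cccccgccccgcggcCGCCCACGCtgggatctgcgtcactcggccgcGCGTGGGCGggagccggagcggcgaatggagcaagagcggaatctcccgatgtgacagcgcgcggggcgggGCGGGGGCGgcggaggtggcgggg
The Jund stretch, chr16:18769970-18770007 on the minus strand, has the motif TGACGTCA, bound by dimers of JUN and ATF proteins, at -221 to -214.
Jund: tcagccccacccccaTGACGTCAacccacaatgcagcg

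Both strands were searched in 33469 windows. The CArG box, CC and GG around 6 bases that are each A or T, was in 1.64% of all windows, and among the 7 genes only in Egr1. TGACGTCA was in 1.83% of windows and here only in Jund. The motif GCGNGGGCG was in 4.98% of windows and, of the 7, in Fosl2, Jund and Nab1. Its subset GCGTGGGCG was in 0.544% of windows and in Jund and Nab1. The AP-1 motif TGANTCA was in 7.33% of windows and in none of the 7. A match describes the letters of a window and not a bound site.

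Jund had by far the highest level of the genes in each group, at 53.7 ± 7.14 FPKM in control, 66.8 ± 2.48 in model and 73.2 ± 11.4 in SYD-H (mean ± SD, n = 3 libraries, here and below). Its libraries did not overlap those of any other gene of the set. Egr1 came next in each group. In control, Egr1, Fosl2 and Nab1 formed a run in which each gene overlapped the next. Nab2, Jun and Fos formed a run of lower means, although Fos in control library 1, at 3.61 FPKM, was above Nab1 in control library 2, at 3.56. Atf3 and Fosb were lowest, at 0.462 ± 0.213 and 0.315 ± 0.264 FPKM. In the model and SYD-H groups, Fos came after Egr1, Fosl2 was the lowest gene in model, and from Egr1 downwards every gene overlapped its neighbour in the order.

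**Figure D1:**
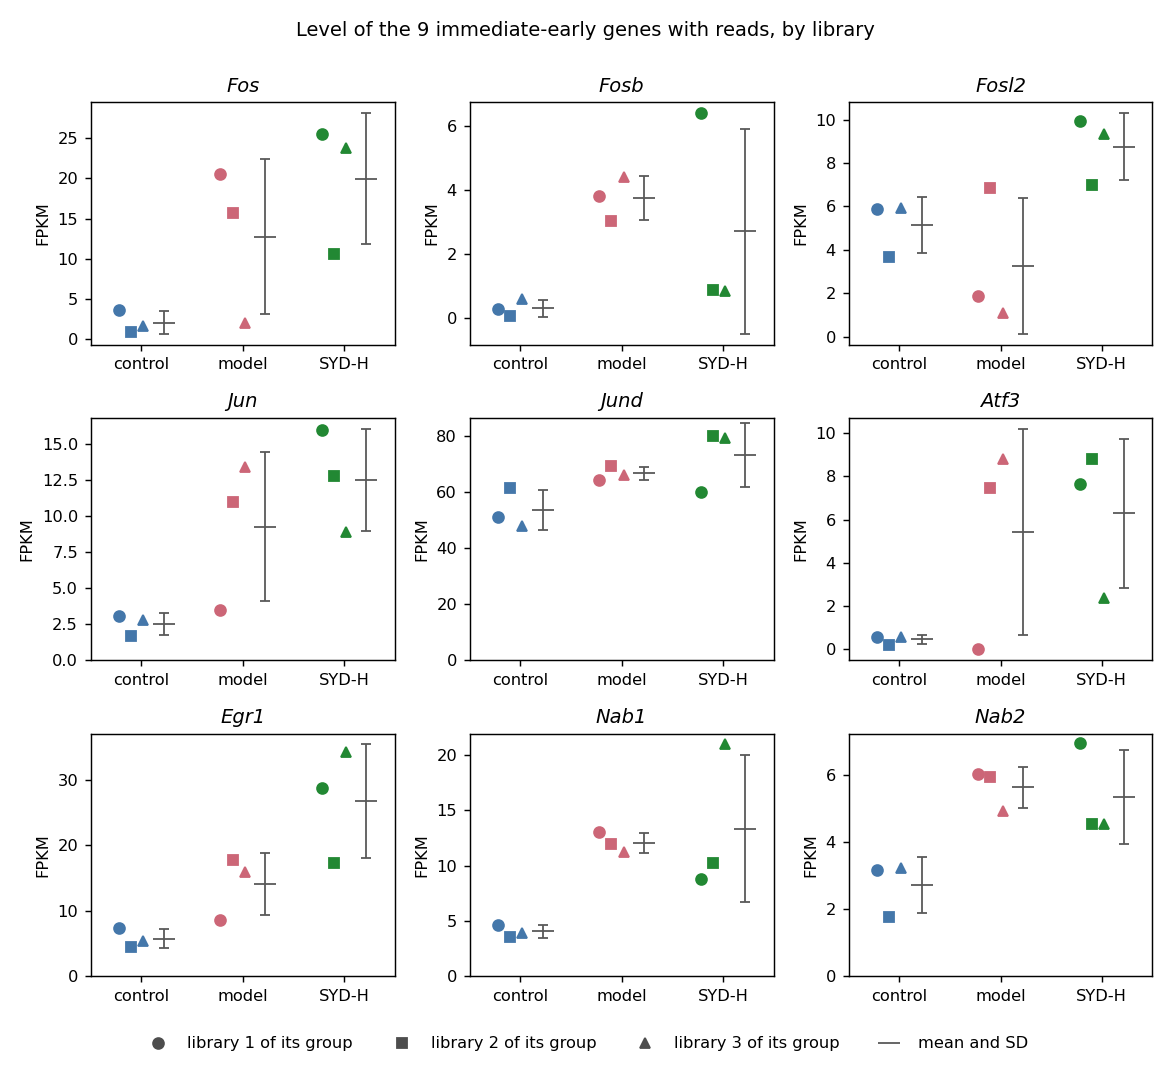
FPKM (y axis) of the 9 immediate-early genes with reads in each of 9 libraries, by group (x axis), with marker shape for the library number and a bar for the mean ± SD of 3 libraries. In FPKM Fosb, Jun, Jund, Egr1, Nab1 and Nab2 were higher in each model library than in any control library, while Fos, Atf3 and Fosl2 spread widely within the model group.

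Fos, the founding FOS gene (chr6:105121170-105124036 in the table, whose build is not given in the sources used here), was listed at 3.61, 0.923 and 1.69 FPKM in the control libraries 1, 2 and 3. The model libraries had 20.6, 15.7 and 1.99 FPKM, and the SYD-H libraries 25.5, 10.6 and 23.8. SYD-H libraries were therefore all above control, whereas model library 3, with 21 Fos reads, lay within the control range. Fosb, which gives an activating protein and a shorter form that lacks the activating end, was low in control, at 0.276, 0.0726 and 0.597 FPKM. It was at 3.82, 3.04 and 4.42 in model, from 52, 301 and 110 reads. In SYD-H, 1 library was high, at 6.40, and the other two were at 0.875 and 0.859 FPKM, just above the highest control library and below the lowest model library.

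Fosl2, also called Fra-2, a FOS protein without the activating end, behaved apart from the other FOS genes. It was at 5.90, 3.68 and 5.93 FPKM in control and at 9.91, 6.99 and 9.32 in SYD-H. In model the values were 1.86, 6.85 and 1.11, with 35, 936 and 38 reads. The low values were those of libraries 1 and 3, and library 2, the model library with the most reads outside mitochondrial genes, was above all control libraries and just below the lowest SYD-H library.

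Jun, the main partner of the FOS proteins, was at 3.09, 1.70 and 2.79 FPKM in control. The model libraries had 3.47, 11.0 and 13.4 FPKM and the SYD-H libraries 16.0, 12.8 and 8.89. All 6 operated libraries lay above control, although model library 1 did so by little and with 57 reads. Jund, a JUN protein made in most cells without a stimulus, varied least. It was at 51.3, 61.7 and 48.0 FPKM in control, 64.6, 69.4 and 66.2 in model, and 60.0, 80.1 and 79.4 in SYD-H. Junb was listed at 0 in all 9 libraries. Its entry, on chromosome 19 from 23176294 to 23178035, carries the biotype pseudogene. Mapk3, a kinase gene used by most cells, was also listed at 0 throughout, so a 0 here may be a failed estimate, and no fold change is given for Junb.

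Atf3, an ATF protein induced by many kinds of stress, was at 0.580, 0.215 and 0.589 FPKM in control. The model libraries had 0, 7.47 and 8.81 FPKM and the SYD-H libraries 7.65, 8.81 and 2.38. All but 1 of the 6 operated libraries were above all controls. The exception, model library 1, had no Atf3 read, which allows up to 3 reads or 0.436 FPKM, a limit that lies within the control range.

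Egr1 (chr18:26462981-26466766 in the table's own build, not GRCr8) rested on 98 to 2379 reads per library. It was at 7.34, 4.44 and 5.42 FPKM in control, 8.65, 17.7 and 15.9 in model, and 28.8, 17.3 and 34.2 in SYD-H. Control was lowest, and the model and SYD-H libraries overlapped only through SYD-H library 2 and model library 2. Nab1 was at 4.67, 3.56 and 3.95 FPKM in control, 13.0, 11.9 and 11.2 in model, and 8.77, 10.3 and 21.0 in SYD-H. The model libraries were close to each other, with a coefficient of variation of 7.61%, against 50.1% in SYD-H. Nab2 was at 3.18, 1.76 and 3.23 FPKM in control, 6.03, 5.95 and 4.95 in model, and 6.98, 4.54 and 4.56 in SYD-H. The operated libraries of both NAB genes were all above control, and the model and SYD-H groups overlapped.

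When compared with control, the mean FPKM in the model group was 11.9 times as high for Fosb, 11.8 for Atf3, 6.15 for Fos, 3.67 for Jun, 2.97 for Nab1, 2.46 for Egr1, 2.07 for Nab2 and 1.24 for Jund. Fosl2 was at 0.633 of its control mean. Of the 10 genes, 9 reached a mean of 0.5 FPKM and were fitted with limma on log2(FPKM + 1), a scale that understates the change of low genes. Fosb and Atf3 reached it through the operated groups, since their control means were below it. The log2 fold changes ± SE were 1.87 ± 0.33 for Fosb, 1.83 ± 0.82 for Fos, 1.59 ± 0.91 for Atf3, 1.40 ± 0.52 for Jun, 1.37 ± 0.25 for Nab1, 1.13 ± 0.36 for Egr1, 0.86 ± 0.34 for Nab2, 0.32 ± 0.21 for Jund and -0.75 ± 0.57 for Fosl2. On log2(TPM + 1) only Fosb and Atf3 were above 0, with all genes shifted lower. Fos and Atf3 had the widest SEs, and each had a single low library in the model group. In bulk tissue, such a difference in level and a difference in how many cells carry the RNA cannot be told apart.

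As a description and not a test, since these values chose the genes, Fosb, Jun, Egr1 and Nab1 lay past the study's criteria, a p under 0.05 before adjustment together with a log2 fold change beyond 1 in size. These criteria were passed by 14.7% of the 13898 genes fitted, and by 3.55% in the higher direction. The count fell from 4 to 2 when control library 2 or control library 3 was left out, and rose to 6 with only the libraries under 50% mitochondrial reads, which leave 1 model library that is assumed to vary like the others. It was 7 with quantile normalization and 2 with trimmed mean of M values, and in TPM the 2 genes past the criteria were both lower. Of all genes, 75.2% were past them in TPM and 23.8% with only the libraries under 50% mitochondrial reads. Of the 9 genes, 6 did not overlap between the groups, all higher in model, as did 28.7% of all genes fitted, or 8.65% in the higher direction.

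When compared with the model group, SYD-H had a higher mean for 7 of the 9 genes. The mean in SYD-H was 2.67 times that in model for Fosl2, 1.90 for Egr1, 1.56 for Fos, 1.35 for Jun, 1.16 for Atf3, 1.11 for Nab1 and 1.10 for Jund. It was 0.949 of the model mean for Nab2 and 0.721 for Fosb. The log2 fold changes ± SE ran from -0.68 ± 0.65 for Fosb and -0.08 ± 0.35 for Nab2, through 0.04 ± 0.38 for Nab1 and 0.12 ± 0.23 for Jund, to 0.88 ± 0.39 for Egr1, 0.94 ± 0.80 for Fos and 1.42 ± 0.57 for Fosl2. The value was 0.53 ± 0.52 for Jun and 0.60 ± 0.98 for Atf3. For Jund, Atf3, Nab1 and Nab2 the SE was larger than the value, and 8 of the 9 genes overlapped between the groups.

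Only Fosl2 passed the study's criteria here, as did 4.15% of all genes fitted, or 3.62% in the higher direction. It was also the only one whose libraries did not overlap, as was so for 11.1% of all genes, or 7.89% in the higher direction. It no longer passed when SYD-H library 1, SYD-H library 3, model library 1 or model library 3 was left out. Nor did it pass without the filter on mean FPKM, in TPM, after rescaling to reads outside mitochondrial genes, with voom, or with the replicate number as a block. With only the libraries under 50% mitochondrial reads its log2 fold change was 0.25 instead of 1.42.

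When compared with control, all 9 genes had a higher mean FPKM in SYD-H, and 6 of 9 were above 0 on log2(TPM + 1). The mean was 13.6 times the control mean for Atf3, 9.62 for Fos, 8.61 for Fosb, 4.96 for Jun, 4.67 for Egr1, 3.29 for Nab1, 1.97 for Nab2, 1.69 for Fosl2 and 1.36 for Jund. For Fosb this rests mainly on SYD-H library 1, at 6.40 FPKM, with libraries 2 and 3 at 0.875 and 0.859. The log2 fold changes ± SE were 2.77 ± 0.45 for Fos, 2.19 ± 0.44 for Atf3, 2.01 ± 0.30 for Egr1, 1.93 ± 0.27 for Jun, 1.41 ± 0.33 for Nab1, 1.19 ± 0.58 for Fosb, 0.78 ± 0.26 for Nab2, 0.67 ± 0.23 for Fosl2 and 0.44 ± 0.18 for Jund. Fos, Atf3, Egr1, Jun and Nab1 passed the study's criteria, against 16.5% of all genes fitted, or 7.25% in the higher direction, and none of the 9 did in TPM. All but Jund, 8 of the 9, did not overlap, as was so for 42.5% of all genes, or 20.3% in the higher direction. The 3 comparisons share libraries, so their values are not independent of each other.

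**Figure D2:**
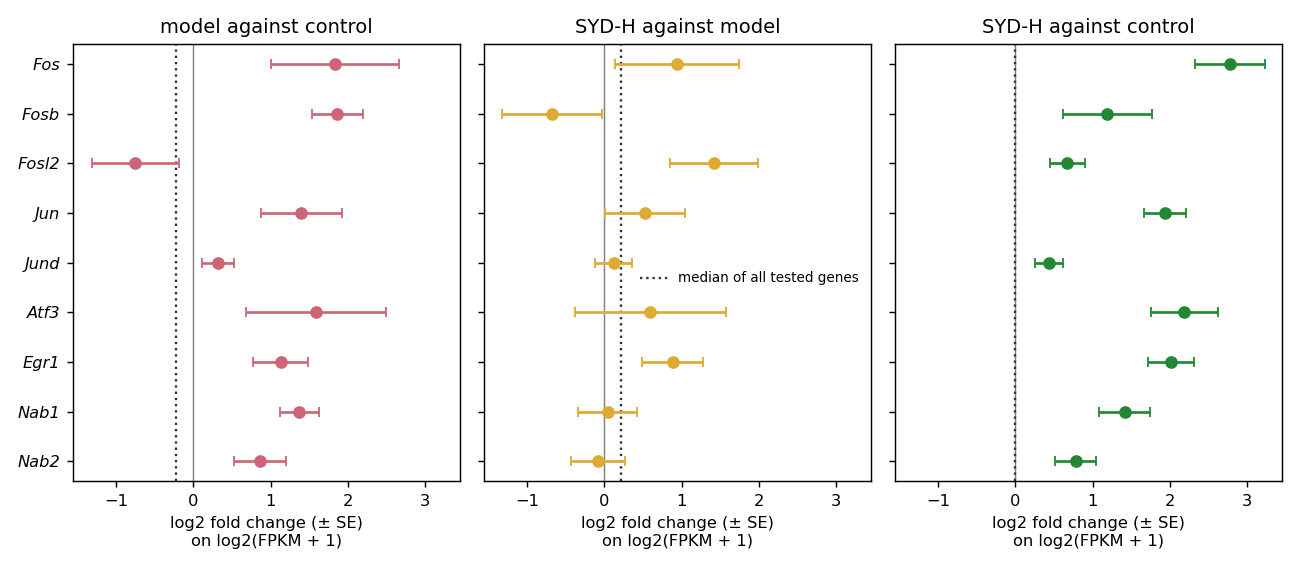
Log2 fold change ± SE on log2(FPKM + 1) (x axis) of the 9 genes (y axis) in the 3 comparisons, from 6 libraries each, with a dotted line at the median of all genes fitted. Against control, 8 of the 9 genes lie above 0 in the model group, all 9 do in SYD-H, and the bars of Jund, Atf3, Nab1 and Nab2 cross 0 between SYD-H and model. After rescaling to TPM, 2 of 9 lie above 0 in model against control and 6 of 9 in SYD-H against control.

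The median log2 fold change of the 9 genes was 1.37 in model against control, beside -0.23 for all genes fitted. It was 0.53 beside 0.22 in SYD-H against model, and 1.41 beside 0 in SYD-H against control. These medians depended on the scale. In TPM, where the mitochondrial genes enter the total, the median of all genes fitted moved to -2.60 in model against control, and that of the 9 genes to -1.43, with 2 of 9 above 0. Relative to the median of all genes, the 9 genes were higher by 1.60 in FPKM and by 1.17 in TPM. For SYD-H against control the difference from all genes was 1.41 in FPKM and 1.95 in TPM. With voom on the recovered reads, all 9 were above 0 in model against control, Fosl2 at 0.05. In SYD-H against model, the 9 genes differed from all genes by 0.31 in FPKM and by -0.06 with voom. That comparison also turned on single libraries. Without model library 1 the median of the 9 genes was 0.10, or -0.03 relative to all genes, and without model library 3 it was 0.11, or -0.10 relative to all genes.

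**Figure D3:**
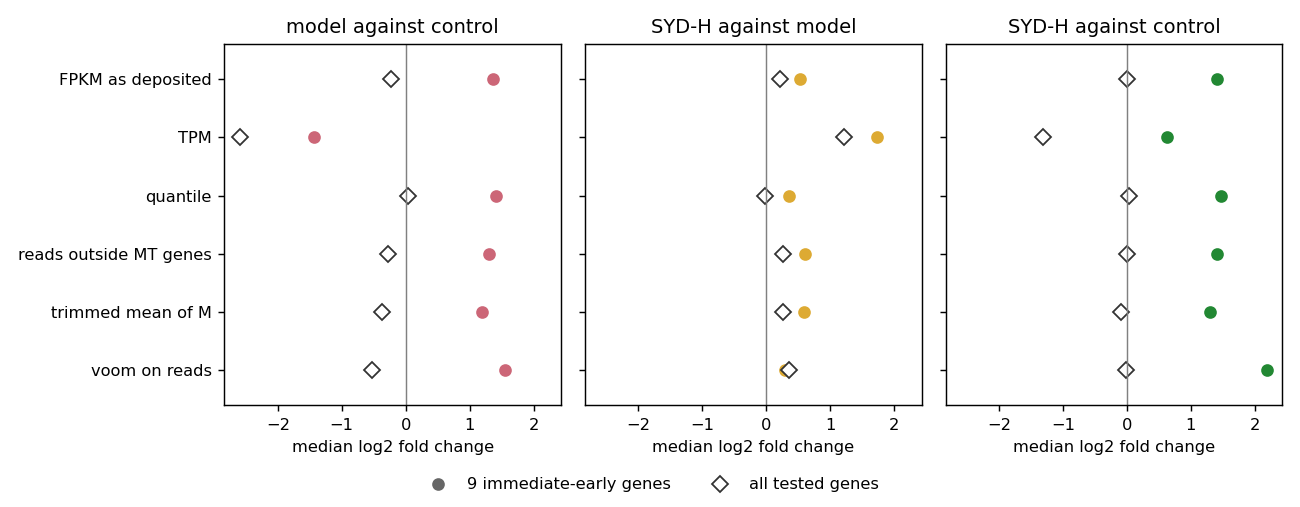
Median log2 fold change (x axis) of the 9 immediate-early genes (filled) and of all genes fitted (open diamonds) under 6 scalings of the same libraries (y axis), by comparison. Against control, the filled point lies to the right of the open one under each scaling, while its sign turns in TPM for model against control.

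The genes did not move as a block from library to library. Within the model group, library 1 had the highest Fos and the lowest Jun, with no Atf3 read, while library 3 had the lowest Fos and the highest Fosb, Jun and Atf3. In SYD-H, library 1 was highest in Fos, Fosb, Fosl2, Jun and Nab2, and library 3 in Egr1 and Nab1. Set against the mean of the other 8 genes over the 9 libraries, log2(FPKM + 1) had a Pearson correlation of 0.93 for Egr1, 0.90 for Jun, 0.85 for Nab2, 0.75 for Nab1, 0.71 for Fos, 0.68 for Atf3, 0.61 for Jund, 0.60 for Fosb and 0.23 for Fosl2. These values include the group differences, and the points share libraries and scaling.

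The mean of the 9 genes, each centred on its own mean of log2(FPKM + 1), was -0.65, -1.13 and -0.78 in the control libraries, -0.10, 0.60 and 0.15 in model, and 0.91, 0.42 and 0.57 in SYD-H. Among 5646 other genes with a mean of at least 5 FPKM, those most like this profile were Uaca, with a Pearson correlation of 0.98, Nagk at 0.97, Mme at 0.97, Tgfb2 at 0.97 and Git1 at 0.97, over 9 libraries. Uaca was at 2.09 to 3.94 FPKM in control, 9.95 to 14.5 in model and 13.4 to 24.0 in SYD-H. Tgfb2, a TGF-beta ligand, was at 0.787 to 2.28, 4.20 to 6.48 and 7.99 to 9.06 FPKM. Both were lowest in control library 2, as was the mean profile.

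A wider list held 55 AP-1, EGR and immediate-early genes outside the set, of which 54 were matched by name, 47 were fitted, and 1, Egr4, was at 0 in all libraries. In model against control, 13 of the 47 passed the study's criteria, 9 higher and 4 lower, as did 14.7% of all genes, 3.55% higher and 11.2% lower. That split moved with the scaling, to 3 higher and 6 lower with trimmed mean of M values, 5 higher and 4 lower after rescaling to reads outside mitochondrial genes, and 0 higher and 27 lower in TPM, where 75.2% of all genes passed. Their median log2 fold change was 0.07, beside -0.23 for all genes. With limma and Benjamini-Hochberg adjustment over all genes, Gadd45g, a growth-arrest and stress gene, rose by a log2 fold change of 2.70 ± 0.45 (adjusted p = 0.0429). Errfi1, a feedback inhibitor of the EGF receptor, rose by 2.51 ± 0.38 (adjusted p = 0.0384). They were the only 2 of the 47 with an adjusted p under 0.05, which 2.59% of all genes had. Errfi1 was at 1.20 to 3.51 FPKM in control, 16.4 to 22.4 in model and 30.4 to 124 in SYD-H.

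Others that passed the criteria alone were Trib1 at 1.41, Hbegf at 1.09, Cebpb at 1.08 and, among the lower ones, Dusp5 at -1.93, Btg2 at -1.74 and Myc at -1.34. In model libraries 1, 2 and 3, Dusp5 had 0, 0 and 18 reads and Myc 14, 389 and 24. Of the AP-1 and EGR relatives, Jdp2, which dimerizes with JUN and acts as a repressor, passed at 1.14 ± 0.35, and Atf7 at -1.14 ± 0.47, with 0 reads in model libraries 1 and 3. Fosl1, Egr2 and Egr3 stayed low, with group means of 0.299 to 1.76 FPKM. The count of 13 fell to 6, 7 or 8 without control library 1, 2 or 3.

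In SYD-H against model, 9 of the 47 passed the criteria, all higher, beside 4.15% of all genes, 3.62% higher and 0.532% lower. They were led by Gadd45b at 2.93 ± 0.88, Sik1 at 2.20 ± 0.52, Ccn1 at 1.83 ± 0.60, Dusp5 at 1.68 ± 0.60 and Per1 at 1.59 ± 0.50, on the log2 scale. Limma with Benjamini-Hochberg adjustment gave 0 of 47 an adjusted p under 0.05 (adjusted p = 0.723 for these 5), as it did 0% of all genes, while 11 had an unadjusted p under 0.05, against 5.26% of all genes. Gadd45b had 0 reads in model libraries 1 and 3 and 196 in library 2. Dusp5 overlapped between the groups, with 0 reads in model libraries 1 and 2 and 18 in library 3. The 9 became 3 without SYD-H library 1, 6 without SYD-H library 3, 4 without model library 3, 14 without model library 2 (12 higher and 2 lower, with 18.0% of all genes past the criteria), and 2 with only libraries under 50% mitochondrial reads.

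In SYD-H against control, 21 of the 47 passed the criteria, 18 higher and 3 lower, beside 16.5% of all genes, 7.25% higher and 9.22% lower. An adjusted p under 0.05 was given to 19, against 17.3% of all genes. Errfi1 rose by 3.96 ± 0.59 (adjusted p = 0.0140, limma with Benjamini-Hochberg adjustment), Gadd45g by 3.12 ± 0.32 (adjusted p = 0.00802) and Nr4a1, an orphan nuclear receptor, by 2.20 ± 0.19 (adjusted p = 0.00670). Cebpb rose by 2.21 ± 0.36, Nfkbia by 2.19 ± 0.34, Cebpd by 2.09 ± 0.29 and Sik1 by 1.93 ± 0.36. Ccn1 had a log2 fold change of 2.64 ± 0.92 with an adjusted p of 0.103. The AP-1 relatives Maff, at 1.65 ± 0.30 (adjusted p = 0.0216), and Jdp2, at 1.59 ± 0.32 (adjusted p = 0.0278), rose as well. In TPM 13 passed, 2 higher and 11 lower, beside 43.4% of all genes, where the median log2 fold change of the 47 was -0.46 and that of all genes -1.31. Mcl1, with the highest mean of the list, was at 42.3 to 62.3 FPKM over the 9 libraries.

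**Figure D4:**
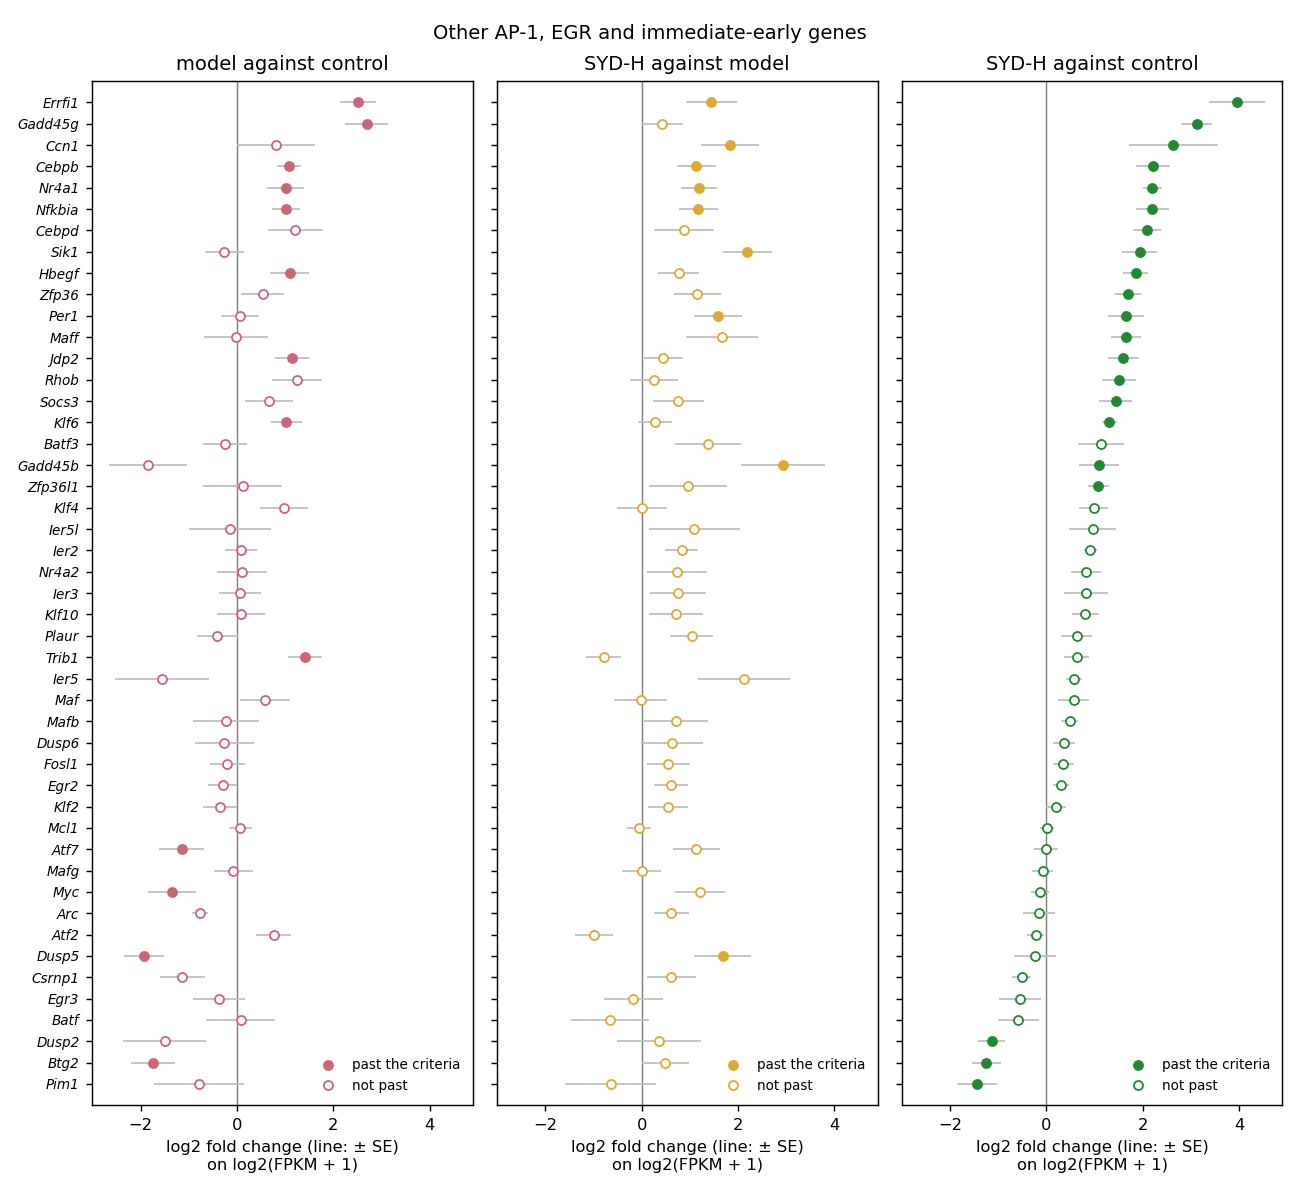
Log2 fold change ± SE on log2(FPKM + 1) (x axis) of the 47 other AP-1, EGR and immediate-early genes (y axis) in the 3 comparisons, ordered by SYD-H against control, filled where the study's criteria were passed. Filled points number 13, 9 and 21, with 4, 0 and 3 of them below 0. In TPM the numbers are 27, 9 and 13, with 27, 0 and 11 below 0, and 75.2%, 3.81% and 43.4% of all genes past the criteria.

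Of 18 genes of the signals that switch these genes on, among them kinases of the MAPK cascades, serum response factor and its partners, 17 were fitted and 1 passed the criteria in model against control, beside 14.7% of all genes. This was the kinase gene Rps6ka1, at -1.27 ± 0.42. It was also the 1 gene of the 17 that passed in SYD-H against control, beside 16.5% of all genes. It fell there by 1.31 on the log2 scale (SE 0.20, adjusted p = 0.0145, limma with Benjamini-Hochberg adjustment). An adjusted p under 0.05 was given to 3 of the 17, Rps6ka1 among them and all lower, beside 17.3% of all genes. None of the 17 passed in SYD-H against model, beside 4.15% of all genes. Srf RNA was at 8.57 to 8.86 FPKM in control, 5.75 to 10.1 in model and 6.07 to 7.13 in SYD-H.

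Of 16 textbook targets of AP-1 or Egr1 in joint tissue, 14 were fitted. In model against control, 2 passed the criteria, both lower, beside 14.7% of all genes, or 11.2% in the lower direction. They were Thbs1 at -2.66 ± 0.68 and Mmp9 at -1.22 ± 0.38. In SYD-H against model 1 passed, Mmp9 at 1.47 ± 0.39, beside 4.15% of all genes. All 14 were above 0 there, with a median log2 fold change of 1.41, beside 0.22 for all genes, and 0 had an adjusted p under 0.05. In SYD-H against control 8 passed, all higher, beside 16.5% of all genes, or 7.25% in the higher direction. Mmp3, stromelysin, rose by 3.80 ± 0.42 (adjusted p = 0.00870, limma with Benjamini-Hochberg adjustment), Spp1, osteopontin, by 2.53 ± 0.43, Mmp13, the main collagenase of cartilage loss, by 2.21 ± 0.49, and Timp1, an inhibitor of these enzymes, by 2.14 ± 0.47. Mmp3 was at 1.81, 0.119 and 1.22 FPKM in control, at 0, 18.3 and 35.3 in model, and at 24.7, 18.1 and 37.3 in SYD-H. As for Atf3, model library 1 had no Mmp3 read, and the other operated libraries were above control.

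The summed levels of some cell type markers differed between the groups too. The summed level of 5 B cell markers was 232 to 302 FPKM in control, 4.47 to 49.3 in model and 6.63 to 40.3 in SYD-H, with 3 of the 5 at 0 in a model library and none at 0 in a control or SYD-H library. That of 6 osteoblast markers was 2998 to 5957 in control, 1243 to 7467 in model and 7747 to 10475 in SYD-H, with none at 0. For 5 endothelial markers it was 24.3 to 32.4 in control, 3.23 to 148 in model and 58.5 to 84.3 in SYD-H, with Pecam1, Kdr and Tek each at 0 in 1 library. Of these sums, that of B cell markers was lower in both operated groups than in control, that of osteoblast markers higher in SYD-H than in either other group, and that of endothelial markers higher in SYD-H than in control. Taken singly, no osteoblast marker in SYD-H was clear of model and only Bglap and Sp7 were clear of control, and of the endothelial markers Vwf and Kdr overlapped control. The 10 chondrocyte markers summed to 432 to 10605, 153 to 876 and 98.9 to 1286 FPKM, and taken singly Col9a1, Matn3, Hapln1 and Cnmd were lower in each model library than in any control library. The sums of synovial fibroblasts, macrophages, neutrophils, erythroid cells, skeletal muscle and adipocytes overlapped between groups, as did the chondrocyte sum. The part of these cells in the levels of the 9 immediate-early genes was not tested.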

How the data were processed

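RNA-seq of 9 rat cartilage libraries was used, with groups taken from the labels. The authors deposited FPKM per gene for 32043 genes. The submitters' processing notes name HISAT2 2.0.5 and the human build hg38, whereas the identifiers are those of rat, and the build and annotation of the table are not given in the sources used here. FPKM multiplied by length fell on whole reads (tolerance 0.1) for 100% of values, which gave the depth, and 3 reads were the floor for a gene at 0. The floor covers counting error only, while SD and SE hold the spread between libraries. Limma 3.58.1 in R 4.3.3 (lmFit, eBayes with trend, two-sided) was run on log2(FPKM + 1) in the 6 libraries of each comparison, over 13898 genes with a mean of at least 0.5 FPKM, with Benjamini-Hochberg adjustment. The code was also run on simulated counts. Their spread was not matched to these libraries, so that run checks the code and not the calls made here. The genes and lists were chosen with earlier results of these data known. All 10 genes are named, with any AP-1 or EGR relative. Of the other immediate-early genes, up to 8 past the criteria in each comparison and the 3 of highest mean could be named, and up to 5 for signal genes and targets. Promoters came from RefSeq. The deposited values per library were all used. Values of some listed genes are not reported here.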

Additional observations from a re-analysis of the deposited data

How the results depend on the processing

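Alternatives were a pseudocount of 0.1, no filter, a mean of at least 1 FPKM, TPM, quantile normalization, rescaling to reads outside mitochondrial genes, trimmed mean of M values, voom on recovered reads, all 9 libraries in 1 fit, the replicate number as a block, and leaving out each library in turn. Restriction to libraries under 50% mitochondrial reads, which leaves 1 model library, was chosen after seeing the data. Of the 10 genes, the number past the study's criteria in model against control was 4 as reported, 2 in TPM (both lower), 7 with quantile normalization, 2 with trimmed mean of M values, and 2 to 5 on leaving out a library. In SYD-H against model it was 1 as reported and 0 without the filter, in TPM, rescaled to reads outside mitochondrial genes, with voom, with the replicate block and in libraries under 50% mitochondrial reads, and 0 to 1 on leaving out a library. In SYD-H against control it was 5 as reported and 0 in TPM. Of the 47 other genes, the number in model against control was 13 as reported, 27 in TPM (all lower, where 75.2% of all genes passed) and 6 to 15 on leaving out a library. In SYD-H against model it was 9, and 14 with voom, 16 with all 9 libraries, 2 in libraries under 50% mitochondrial reads and 3 to 14 on leaving out a library. In SYD-H against control it was 21, and 13 in TPM. In model against control, TPM turned Jun to -1.09, Egr1 to -1.70 and Nab1 to -1.43 on the log2 scale. Jund, Fos and Nab2, which had not passed the criteria in FPKM, turned to -2.84, -0.58 and -1.69. TPM counts mitochondrial reads in the total. The cause of the other shifts was not tested.

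The labels number the libraries 1 to 3 in each group without saying what a number shares. Deviations of same-numbered libraries from their group means correlated at -0.20, -0.27 and -0.08 in model and control, at -0.07, 0.19 and 0.14 in SYD-H and model, and at 0.07, -0.19 and -0.14 in SYD-H and control, so the numbers were not taken as pairs. With the replicate block, 3, 0 and 5 of the 9 genes and 9, 11 and 21 of the 47 passed the criteria in model against control, SYD-H against model and SYD-H against control. Model libraries 1 and 3 had the fewest reads outside mitochondrial genes, and the part of depth in the calls was not tested.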
